A study of Homo sapiens with 6 samples.

Results

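The genes described here encode the synaptic vesicle and release machinery, the proteins that dock, prime, fuse and recycle transmitter vesicles. The 33 genes were chosen by name, and all 33 were found among the 35473 gene rows of the table. PolyA-selected RNA of IMR32, a human neuroblastoma cell line, was sequenced. In the CBR-470-1 group, 3 cultures received 5 µM of the compound for 24 h. In the DMSO group, 3 cultures received the same volume of the DMSO vehicle for the same time. Both groups were grown in the same serum-containing medium, and the series describes the 3 libraries of each group as independent biological replicates. A single established line was used.

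A transmitter vesicle fuses when the vesicle SNARE protein synaptobrevin zippers with syntaxin and SNAP25 on the plasma membrane. Synaptotagmins sense calcium and trigger this step, complexins hold the SNARE complex ready, and Munc13 and CAPS proteins prime it. NSF and its SNAP adaptors then take the spent complexes apart, while dynamin and adaptor proteins retrieve the membrane. Neuroblastoma cells derive from the sympathoadrenal lineage, whose cells store and secrete catecholamines from vesicles that use the same proteins.

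Most of the machinery was expressed in both groups, and no gene of it passed the test between them, which does not show that the levels were equal. Values are given as TPM, the length-scaled share of a gene's transcripts in its library. A level of TPM cannot tell fewer expressing cells from less RNA per cell. Of the 33 genes, 30 had a mean of at least 1 TPM and were tested. None of the 30 passed in limma at an adjusted p under 0.05 (0 higher, 0 lower), where 1.97% of the 13470 rows tested passed, 1.13% higher and 0.839% lower. At an unadjusted p under 0.05, 11 of the 30 passed, against 23.5% of all rows. The median log2 fold change of the 30 genes was -0.02 and that of all rows was 0.03. Each log2 fold change compares log2(TPM + 1), CBR-470-1 over DMSO, a scale that understates the change of low genes.

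For most of these genes the precision set only a wide bound on the difference. The 95% interval of the log2 fold change lay within 0.5 of 0 for 24 of the 30 genes (80%), and for 77.9% of all rows tested. The summed level of the 33 genes was between 1106 and 1122 TPM in CBR-470-1 and between 1088 and 1157 TPM in DMSO. Its mean was 1113 ± 8.13 TPM in CBR-470-1 and 1122 ± 34.7 TPM in DMSO (SD, n = 3 each), so the means differed by less than the spread within DMSO. In 10 of the 30 genes the groups did not overlap, which is 33.3%, against 30.2% of all rows tested. In 6 of these every CBR-470-1 library was above every DMSO library (17.7% of all rows), and in 4 every CBR-470-1 library was below (12.5% of all rows). An exact permutation test of 3 against 3 cannot give a p under 0.1, so non-overlap is a description.

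**Figure D1:**
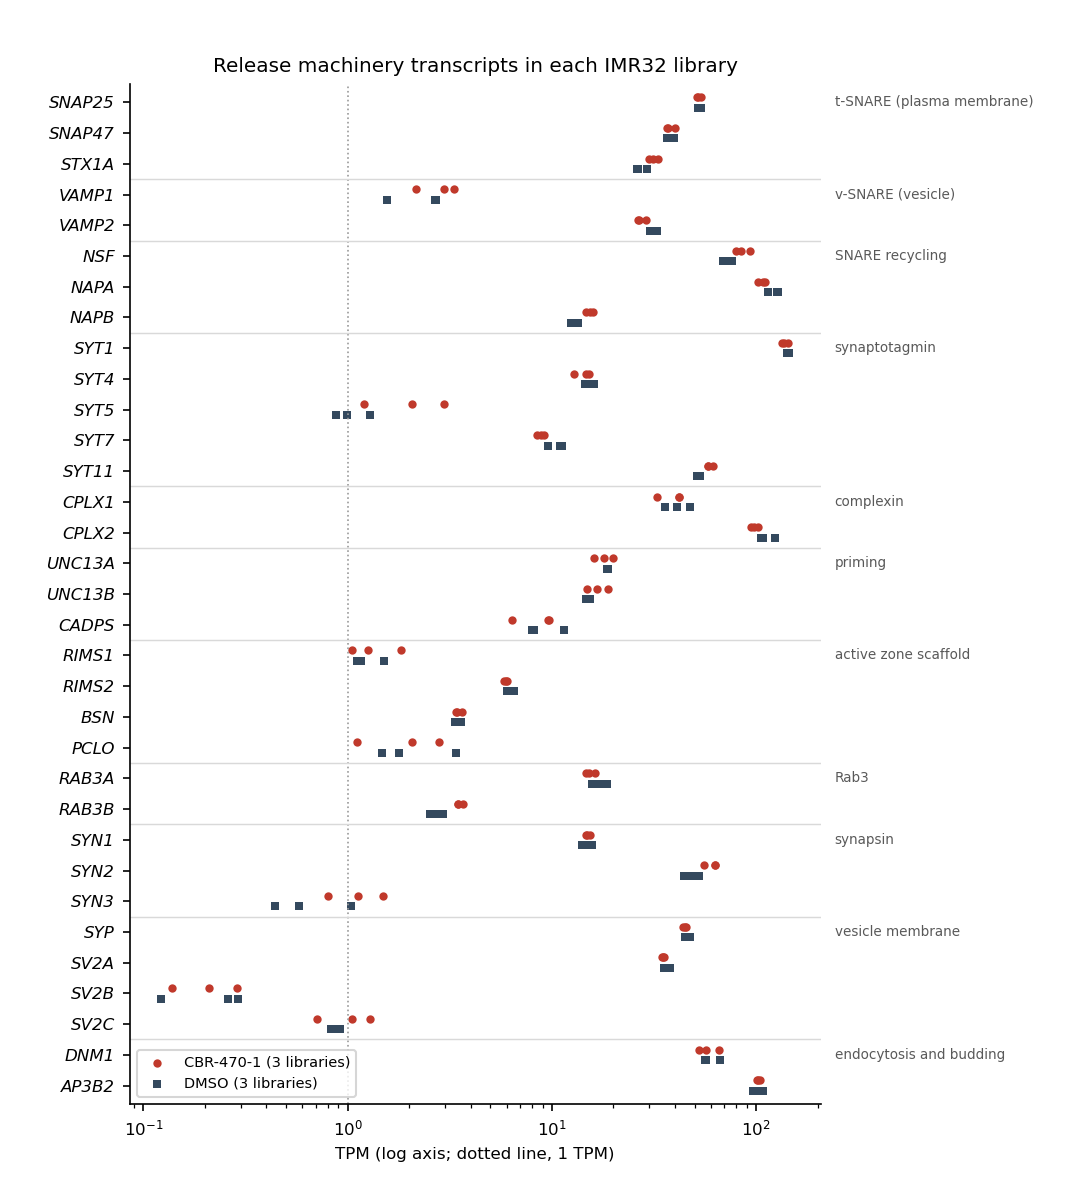
Level of each of the 33 genes in TPM (log axis) in the 3 CBR-470-1 and 3 DMSO libraries, 1 point a library, grouped by role. The genes run between SYT1 at a mean of 140.3 TPM and SV2B at 0.218 TPM, and the points of low genes such as SYT5 and PCLO are spread more widely than those of SNAP25 or SYP.

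Levels spanned a wide range. Over the 6 libraries, 4 genes had a mean over 100 TPM, 11 lay between 20 and 100 TPM, 9 between 5 and 20 TPM, 6 between 1 and 5 TPM and 3 under 1 TPM. SYT1, NAPA, CPLX2 and AP3B2 were the highest and together held 39.6% to 43.2% of the summed level in each library. Of the 32 neighbouring pairs in the order of mean levels, 23 had overlapping ranges over the 6 libraries and 9 did not. SYT1 stood apart above NAPA, and AP3B2 stood apart above NSF, whereas NAPA, CPLX2 and AP3B2 could not be ordered beyond their spread. The 3 genes under 1 TPM were SV2C (0.944 TPM), SYN3 (0.913 TPM) and SV2B (0.218 TPM), which were not tested.

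A few facts about the libraries bear on all of these values. NQO1, a standard target of the transcription factor NRF2 that the series title names, had 61.4, 66.5 and 70.6 TPM in CBR-470-1, against 3.74, 4.93 and 5.31 TPM in DMSO, and 8 of 10 standard NRF2 targets rose in limma. All 13 sympathoadrenal markers averaged at least 1 TPM, with summed levels of 3079 to 3119 TPM in CBR-470-1 and 3177 to 3464 TPM in DMSO, and 2 of them (DBH and CHGA) fell. Of 12 mesenchymal and Schwann-like markers, 7 averaged at least 1 TPM, with TWIST1 the highest, and they summed to 308 to 317 TPM in CBR-470-1 and 311 to 329 TPM in DMSO. None of 13 blood, endothelial and epithelial markers averaged 1 TPM. They summed to 1.497 to 2.32 TPM in CBR-470-1 and 1.19 to 2.15 TPM in DMSO, with CD3E and HBB among those at 0 in all libraries. The part of these levels in the results below was not tested.

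Promoter windows are shown for SYN2, STX1A, NAPB and NAPA, because SYN2 had the smallest adjusted p of the 30 genes, STX1A was the one gene to pass under another setting, and NAPB and NAPA are paralogues on opposite sides of 0. The sequences come from RefSeq on GRCh38.p14, run 5′ to 3′ along the gene's strand, and stop before the first annotated exon. They cover chr3:12004138-12004387 on the plus strand for SYN2, and on the minus strand chr7:73719673-73719919 for STX1A, chr20:23421520-23421738 for NAPB and chr19:47515241-47515313 for NAPA. Capitals mark matches, on either strand, to GGGCGG (the GC box), TGACNNNGC (the core of the antioxidant response element, ARE, which NRF2 binds with small MAF proteins), TGACGTCA (CRE) or CACGTG (E-box). No position was shared by different motifs in the windows printed.
SYN2: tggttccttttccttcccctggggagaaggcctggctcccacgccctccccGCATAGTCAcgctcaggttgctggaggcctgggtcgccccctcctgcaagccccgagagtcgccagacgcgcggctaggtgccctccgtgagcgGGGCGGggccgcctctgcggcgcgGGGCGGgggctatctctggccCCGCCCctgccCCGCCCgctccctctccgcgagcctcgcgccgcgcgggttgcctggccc
STX1A: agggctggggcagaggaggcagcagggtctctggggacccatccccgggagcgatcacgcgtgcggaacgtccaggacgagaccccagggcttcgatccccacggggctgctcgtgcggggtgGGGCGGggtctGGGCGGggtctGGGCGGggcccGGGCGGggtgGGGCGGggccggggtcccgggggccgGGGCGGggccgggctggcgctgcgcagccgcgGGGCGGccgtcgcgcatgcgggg
NAPB: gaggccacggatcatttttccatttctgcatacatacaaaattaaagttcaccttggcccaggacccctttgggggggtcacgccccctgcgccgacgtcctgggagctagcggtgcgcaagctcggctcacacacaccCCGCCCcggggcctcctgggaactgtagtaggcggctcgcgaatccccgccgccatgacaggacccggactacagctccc
NAPA: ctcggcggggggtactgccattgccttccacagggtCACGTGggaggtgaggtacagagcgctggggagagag
SYN2 holds 1 match to the ARE core, 199 bases before its start, and 4 GC boxes. STX1A holds 7 GC boxes, NAPB 1 GC box and NAPA 1 E-box in the stretch shown. A RefSeq window of 300 bases, running from 250 before to 50 after a start, was present for 28 of the 33 genes. The others were CPLX1, RIMS2, SNAP25, SYN3 and SYT7. The ARE core was found in windows of 5 of the 28 genes (NAPA, SNAP47, SYN2, UNC13A and VAMP1), or 12.5% of their 40 windows, against 13.3% of all 35116 windows. The CRE was found in SYN1 alone of these genes and in 1.85% of all windows, and the E-box in NAPA and UNC13A and in 7.26% of all windows. GC boxes were found for 22 of the 28 genes, in 65% of their windows and 44.95% of all windows. A match is a description of these letters and shows no binding.

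The transcripts of SNAP25 and SNAP47 had some of the smallest fold changes of the set, and that of STX1A differed more. SNAP25, a SNARE protein of the plasma membrane, had 51.5, 53.8 and 52.0 TPM in CBR-470-1, against 51.9, 52.4 and 53.7 TPM in DMSO. Its log2 fold change was -0.01 (SE 0.0459, adjusted p = 0.954 in limma), with a 95% interval of -0.11 to 0.10. The libraries of both groups are mixed in this order. SNAP47, a broadly expressed SNAP25 relative, averaged 37.9 ± 1.85 TPM in CBR-470-1 and 37.9 ± 1.69 TPM in DMSO. STX1A, syntaxin 1A, the partner of SNAP25 on the same membrane, had 32.96, 29.9 and 31.1 TPM in CBR-470-1, against 26.1, 26.5 and 29.2 TPM in DMSO. All 3 CBR-470-1 libraries were above the DMSO libraries, with a narrow gap between 29.9 and 29.2 TPM. The log2 fold change of STX1A was 0.19 (SE 0.0669, adjusted p = 0.144 in limma). After a GC and length correction it was 0.28 (SE 0.0453) and passed, at an adjusted p = 0.0327. With that correction and a block for replicate number, STX1A did not pass (adjusted p = 0.109 in limma). After median centring its groups overlapped, at a log2 fold change of 0.16 (adjusted p = 0.222 in limma). The STX1A gene overlaps BUD23 on the opposite strand, listed as WBSCR22 at 83.0 ± 2.32 TPM in CBR-470-1 and 88.2 ± 9.57 TPM in DMSO, and the library kit does not mark strand. This limit is not particular to STX1A, as SYN1, DNM1, RAB3A, SNAP47 and others of the set also overlap opposite-strand genes.

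The vesicle SNARE differed the other way, without passing the test. VAMP2, synaptobrevin 2, had 28.8, 26.8 and 26.3 TPM in CBR-470-1, against 30.1, 30.4 and 32.7 TPM in DMSO. The CBR-470-1 libraries were all below the DMSO libraries, and the log2 fold change was -0.18 (SE 0.0621, adjusted p = 0.144 in limma). VAMP1, synaptobrevin 1, lay between 2.15 and 3.30 TPM in CBR-470-1 and between 1.55 and 2.71 TPM in DMSO. VAMP2 thus held most of the summed synaptobrevin level, 90.7% ± 1.49 in CBR-470-1 and 93.1% ± 1.78 in DMSO.

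The genes that take SNARE complexes apart did not share a direction. NSF, the ATPase of this step, had 79.3, 83.9 and 93.04 TPM in CBR-470-1, against 76.4, 74.8 and 68.8 TPM in DMSO. Its groups did not overlap, and its log2 fold change was 0.22 (SE 0.0711, adjusted p = 0.132 in limma). The near-identical pseudogene NSFP1, which can share reads with NSF, was listed at 6.15 ± 3.17 TPM in CBR-470-1 and 5.75 ± 0.747 TPM in DMSO. NAPA, alpha-SNAP, the broadly expressed adaptor that brings NSF to the SNARE complex, had 109, 102 and 110.3 TPM in CBR-470-1, against 128, 114 and 127 TPM in DMSO. Here the CBR-470-1 libraries were all below, with a log2 fold change of -0.20 (SE 0.0592, adjusted p = 0.114 in limma). NAPB, beta-SNAP, its brain-enriched paralogue, had 14.8, 15.98 and 15.4 TPM in CBR-470-1, against 13.4, 12.4 and 12.8 TPM in DMSO. The CBR-470-1 libraries of NAPB were all above, with a log2 fold change of 0.24 (SE 0.0662, adjusted p = 0.0983 in limma). The share of NAPB in the summed level of NAPA and NAPB was 12.6% ± 0.823 in CBR-470-1 and 9.50% ± 0.318 in DMSO (SD, n = 3 each). NAPG, a further SNAP gene outside the set, was not counted. It averaged 12.1 ± 1.10 TPM in CBR-470-1 and 10.6 ± 0.910 TPM in DMSO.

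**Figure D2:**
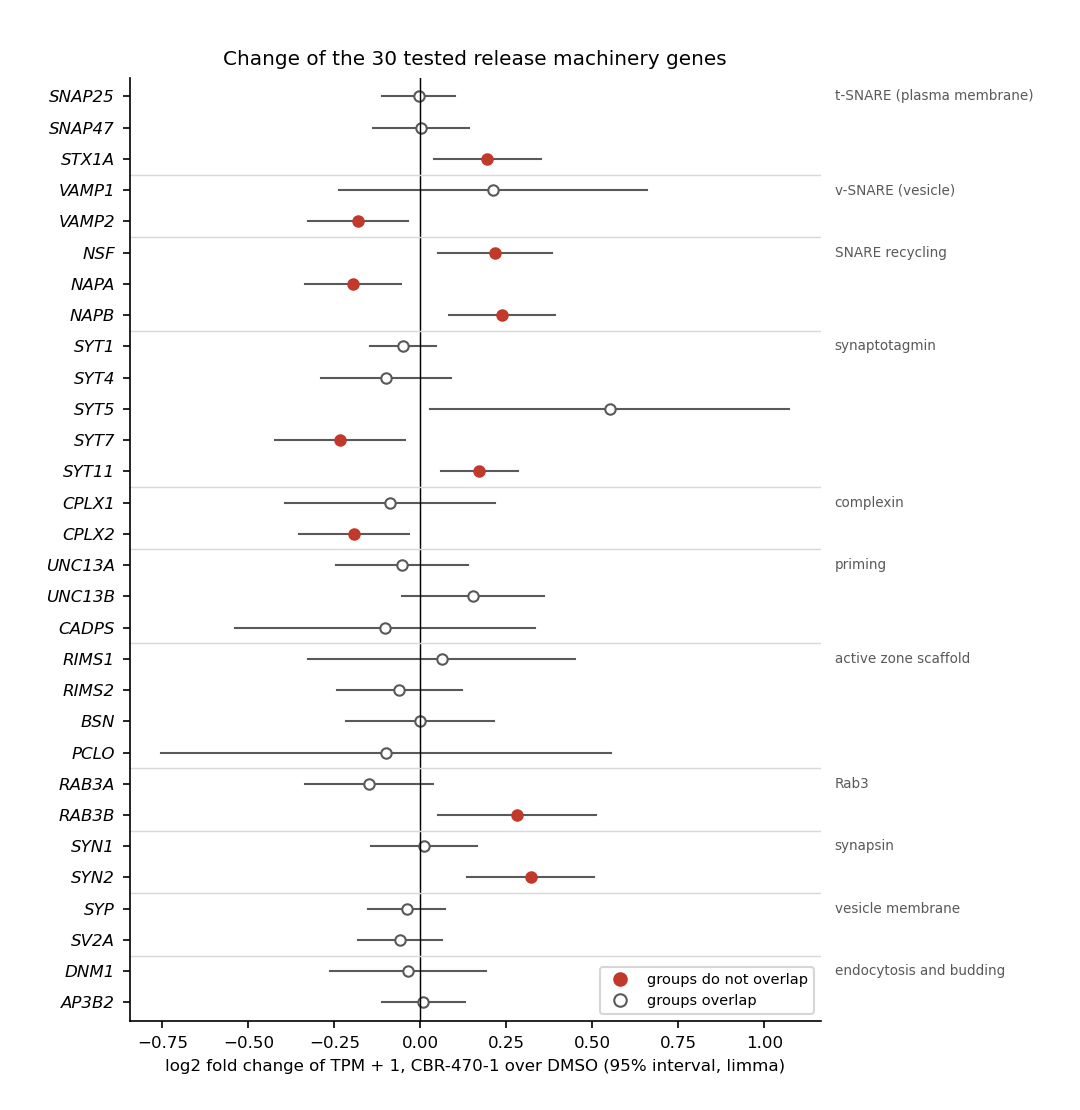
Log2 fold change of TPM + 1, CBR-470-1 over DMSO, with its 95% interval for the 30 tested genes, grouped by role, where filled points are genes whose groups do not overlap and open points those whose groups do. Intervals of most genes lie within 0.5 of 0, and SYT5, at 0.55, has one of the widest.

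Among the synaptotagmins of the set, SYT1 carried most of the level and differed little. SYT1, the fast calcium sensor of vesicle fusion, had 136, 143 and 134 TPM in CBR-470-1, against 146, 141 and 141 TPM in DMSO, which overlap. Its log2 fold change was -0.05 (SE 0.0411, adjusted p = 0.480 in limma). After median centring (-0.09) and after the GC and length correction (-0.11), the CBR-470-1 libraries of SYT1 were all below. It passed in neither. SYT11, a synaptotagmin that does not bind calcium, had 58.4, 61.3 and 58.1 TPM in CBR-470-1, against 53.2, 51.2 and 53.2 TPM in DMSO. Its groups were clearly separate, but the log2 fold change of 0.17 (SE 0.0476) had an adjusted p = 0.0975 in limma. SYT7, a slow, high-affinity calcium sensor, had 8.85, 9.11 and 8.501 TPM in CBR-470-1, against 9.62, 11.2 and 10.9 TPM in DMSO. All CBR-470-1 values of SYT7 were lower, with a log2 fold change of -0.23 (SE 0.0804, adjusted p = 0.144 in limma). SYT4, found on dense-core vesicles, lay between 12.9 and 15.2 TPM in CBR-470-1 and between 14.5 and 16.03 TPM in DMSO. SYT5 had 2.97, 2.08 and 1.20 TPM in CBR-470-1, against 0.994, 0.879 and 1.29 TPM in DMSO, so one CBR-470-1 library lay inside the DMSO range. Its log2 fold change of 0.55 (SE 0.224, adjusted p = 0.195 in limma) was measured at one of the lowest levels. It was 0.35 without CBR-470-1 replicate 1 and 0.77 without CBR-470-1 replicate 3. With a pseudocount of 0.1 TPM it was 0.85, and with a pseudocount of 5 TPM 0.22, where SYN2 had 0.30.

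The same 5 genes can be set out as shares of their summed level. SYT11 held 26.7% ± 0.116 in CBR-470-1 and 23.6% ± 0.275 in DMSO, and SYT1 held 62.0% ± 0.123 in CBR-470-1 and 64.2% ± 0.523 in DMSO. SYT7 held 3.97% ± 0.0565 in CBR-470-1 and 4.76% ± 0.435 in DMSO. The summed level of the 5 genes was 222 ± 7.17 TPM in CBR-470-1 and 222 ± 3.20 TPM in DMSO.

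Complexins are the small clamps of the SNARE complex. CPLX2 had 97.8, 94.0 and 102 TPM in CBR-470-1, against 105, 108 and 123 TPM in DMSO. The CBR-470-1 libraries were all below the DMSO libraries, with a log2 fold change of -0.19 (SE 0.0686, adjusted p = 0.154 in limma). Without DMSO replicate 3, its highest library, the log2 fold change was -0.12. CPLX1 lay between 32.7 and 42 TPM in CBR-470-1 and between 35.7 and 47.7 TPM in DMSO. CPLX1 overlaps between the groups, and its log2 fold change was -0.09 (adjusted p = 0.714 in limma).

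Priming factors and active zone scaffolds showed no separation between the groups in the values as deposited. UNC13A, Munc13-1, which opens syntaxin for assembly, had 20.03, 16.2 and 17.9 TPM in CBR-470-1, against 18.6, 18.7 and 18.8 TPM in DMSO. The CBR-470-1 libraries of UNC13A lay on both sides of a tight DMSO range (log2 fold change -0.05, SE 0.0824, adjusted p = 0.731 in limma). UNC13B, Munc13-2, averaged 16.8 ± 1.96 TPM in CBR-470-1 and 14.9 ± 0.316 TPM in DMSO, and CADPS, the CAPS protein of dense-core vesicle priming, 8.55 ± 1.91 TPM in CBR-470-1 and 9.23 ± 1.99 TPM in DMSO. RIMS2, a scaffold that links Rab3 on vesicles to the active zone, had 5.81, 6.05 and 5.95 TPM in CBR-470-1, against 6.54, 6.03 and 6.15 TPM in DMSO, which overlap. After median centring (log2 fold change -0.10) and after the GC and length correction (-0.15), the CBR-470-1 libraries of RIMS2 were all below. It passed in neither. RIMS1, PCLO (piccolo) and BSN (bassoon), further scaffolds of the active zone, were low, between 1.05 and 3.63 TPM in CBR-470-1 and between 1.11 and 3.58 TPM in DMSO, and all 3 overlapped.

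Of the Rab3 GTPases in the set, which tether vesicles to RIM proteins, RAB3A was the more abundant. It had 16.2, 15.2 and 14.7 TPM in CBR-470-1, against 17.2, 15.7 and 18.6 TPM in DMSO, with overlapping groups (log2 fold change -0.15, SE 0.0793, adjusted p = 0.299 in limma). RAB3B had 3.47, 3.49 and 3.67 TPM in CBR-470-1, against 2.93, 2.75 and 2.54 TPM in DMSO, with no overlap and a log2 fold change of 0.28 (SE 0.0985, adjusted p = 0.148 in limma). RAB3B made up 18.8% ± 1.18 of the summed level of RAB3A and RAB3B in CBR-470-1 and 13.8% ± 1.57 in DMSO. RAB3C and RAB3D are outside the set and were not counted in this sum. RAB3C was higher than RAB3A, at 37.2 ± 2.30 TPM in CBR-470-1 and 38.6 ± 0.994 TPM in DMSO. RAB3D averaged 3.76 TPM in CBR-470-1 and 3.38 TPM in DMSO.

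SYN2 came nearest to passing the test. Synapsins coat vesicles and tie them into the reserve pool. SYN2 had 62.6, 63.3 and 55.9 TPM in CBR-470-1, against 47.9, 52.8 and 44.5 TPM in DMSO. All CBR-470-1 libraries were above all DMSO libraries. The means were 60.6 ± 4.09 TPM in CBR-470-1 and 48.4 ± 4.18 TPM in DMSO, and the log2 fold change was 0.32 (SE 0.0786, 95% interval 0.14 to 0.50, adjusted p = 0.0782 in limma). The gene (ENSG00000157152.16) spans chr3:12004402-12191400 on the plus strand. SYN1 averaged 15.0 ± 0.386 TPM in CBR-470-1 and 14.9 ± 0.782 TPM in DMSO, and SYN3 lay between 0.804 and 1.49 TPM in CBR-470-1 and between 0.440 and 1.03 TPM in DMSO. SYN2 therefore held 79.0% ± 0.747 of the summed synapsin level in CBR-470-1 and 75.6% ± 2.24 in DMSO.

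Of the 4 vesicle membrane genes, SYP and SV2A were tested and neither passed. SYP, synaptophysin, the standard vesicle marker, had 44.9, 45.2 and 44.0 TPM in CBR-470-1, against 44.7, 45.8 and 47.4 TPM in DMSO, a log2 fold change of -0.04 (SE 0.0481, adjusted p = 0.650 in limma). Its values overlap and bound the log2 fold change between -0.15 and 0.07. SV2A, a vesicle glycoprotein, averaged 35.1 ± 0.543 TPM in CBR-470-1 and 36.6 ± 1.38 TPM in DMSO. After median centring the CBR-470-1 libraries of both genes lay below all DMSO libraries, and neither gene passed. Its paralogues SV2B and SV2C together made up a small part of the SV2 level, as SV2A held 96.6% ± 0.927 in CBR-470-1 and 97.1% ± 0.333 in DMSO.

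The retrieval and budding genes did not differ beyond their spread. AP3B2, the neuronal beta subunit of the AP-3 adaptor, had 103, 105 and 101 TPM in CBR-470-1, against 104, 96.4 and 108 TPM in DMSO. Its groups overlapped, with a log2 fold change of 0.01 (SE 0.0514, adjusted p = 0.944 in limma). DNM1, dynamin 1, which pinches vesicles off the plasma membrane, averaged 58.4 ± 6.76 TPM in CBR-470-1 and 59.9 ± 5.58 TPM in DMSO.

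**Figure D3:**
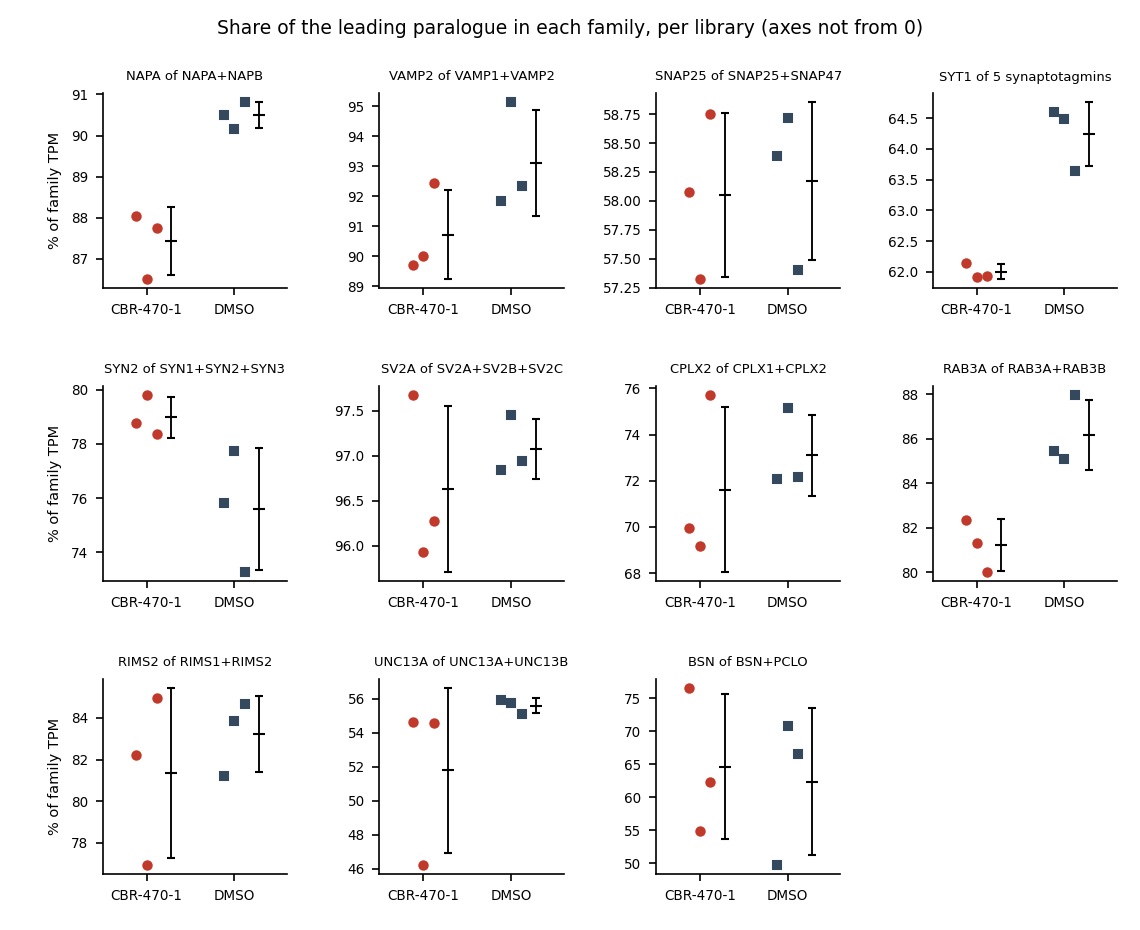
Share of the gene with the highest level in the summed TPM of each of 11 families, in percent. Families hold only genes of the 33-gene set, so RAB3 and RIMS leave out RAB3C and RIMS3, which had higher levels. Points are the 3 CBR-470-1 and 3 DMSO libraries, 1 point a library, with mean and SD. Each axis covers its own range and does not start at 0. NAPA, SYT1, RAB3A and UNC13A hold a lower share and SYN2 a higher share in every CBR-470-1 library than in any DMSO library.

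In the UNC13 family, UNC13A held 54.6%, 46.2% and 54.6% in CBR-470-1, against 55.9%, 55.8% and 55.1% in DMSO. The groups did not overlap, but the mean difference of -3.79 percentage points was -0.99 without CBR-470-1 replicate 2. The shares in SNAP25 and SNAP47, the synaptobrevins, SV2, complexins, RIMS, and bassoon and piccolo overlapped. Only genes of the set were counted in these families. RIMS thus left out RIMS3, at 51.1 ± 1.19 TPM in CBR-470-1 and 46.3 ± 4.04 TPM in DMSO, which was higher than RIMS2. No such shares were computed for other gene families, so the number of families that separate the groups has no background to be read against. The shares come from the same values as the fold changes, so they are no separate evidence.

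Transcript base composition moved with the direction of change over the whole table. Across 13172 rows with a known GC content, the correlation of the log2 fold change with the GC content of the longest transcript was -0.35 (Spearman's rho), and among the 30 genes it was -0.18, both given as descriptions across genes. The median log2 fold change of all rows was 0.09 under 45% GC, 0.02 between 45% and 55%, and -0.06 over 55%. In the set it was 0.001 for 10 genes under 45%, 0.031 for 8 between, and -0.047 for 12 over 55%. Of the 10 set genes under 45% GC, 5 lay above 0, against 74.5% of all rows in that class. The 6 genes with all CBR-470-1 libraries above had transcripts of 41.7% to 60.2% GC, and the 4 with all below had 53.4% to 59.9%. The median GC was 45.55% for the 6 and 58.95% for the 4. After the correction for GC content and length, rho was -0.03 over all rows and 0.20 among the 30 genes. The groups then did not overlap for 14 of the 30 genes (46.7%), against 28.7% of all rows. Among the 14, SYT1, SYT4 and RIMS2 (lower) and SYT5 and SYN1 (higher) had overlapped as deposited. With the correction SYN2 had a log2 fold change of 0.34 (adjusted p = 0.0714 in limma), NSF 0.19 (adjusted p = 0.146) and NAPB 0.18 (adjusted p = 0.131). NAPA had -0.12 (adjusted p = 0.248), and its groups then overlapped. STX1A, with the highest GC content of the 10 non-overlapping genes, was the only one of the 30 to pass after the correction.

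**Figure D4:**
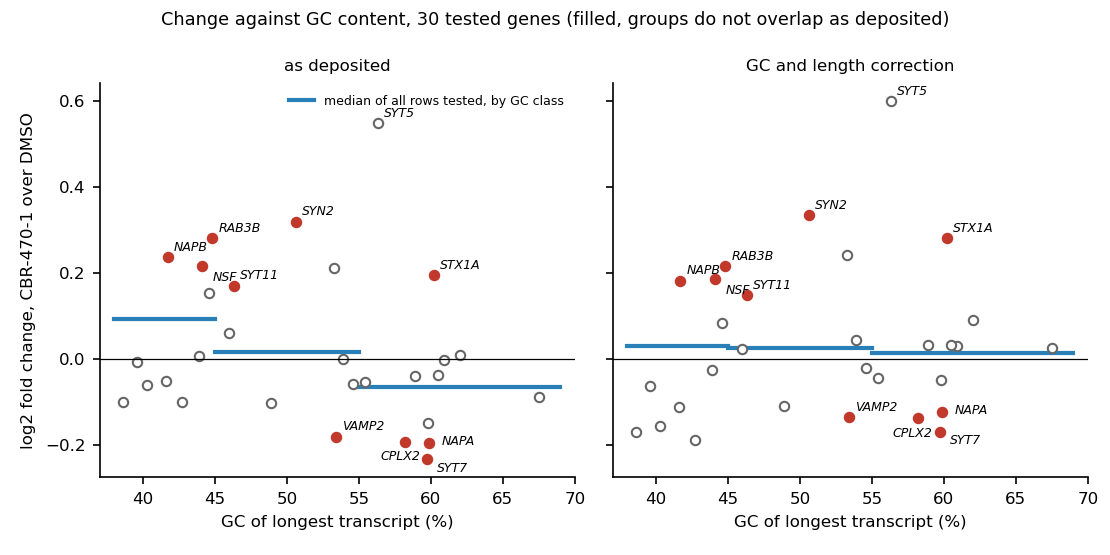
Log2 fold change, CBR-470-1 over DMSO, against the GC content of the longest transcript in percent for the 30 tested genes, before (left) and after (right) the GC and length correction, where filled points are the 10 genes whose groups do not overlap as deposited and bars are medians of all rows in 3 GC classes. The bars step down with GC content on the left (0.09, 0.02 and -0.06) and lie near each other on the right.

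Beyond the 33 genes, 8 lists of other presynaptic genes held 136 genes abundant enough to test, and 1 of them passed, against 1.97% of all rows. LIN7A, a small PDZ scaffold that joins CASK and APBA1 in a presynaptic complex, rose, with 19.8, 20.03 and 19.2 TPM in CBR-470-1, against 13.2, 13.1 and 11.4 TPM in DMSO. Its log2 fold change was 0.61 (SE 0.0733, adjusted p = 0.0157 in limma), and its groups lay far apart. The call was lost in 4 of 6 omissions of a library, at an adjusted p = 0.0675, 0.0822 and 0.0786 without CBR-470-1 replicate 1, 2 and 3 and 0.0637 without DMSO replicate 2. It was kept without DMSO replicate 1 (adjusted p = 0.0487) and without DMSO replicate 3 (adjusted p = 0.0374), and the log2 fold change stayed between 0.55 and 0.64 over all 6 omissions. Its paralogues, named after their values were seen, were LIN7C at 17.3 ± 0.917 TPM in CBR-470-1 and 14.1 ± 0.549 TPM in DMSO, and LIN7B at 8.73 ± 1.602 TPM in CBR-470-1 and 8.23 ± 1.29 TPM in DMSO. LIN7A was 1 of 19 tested genes in the list of other active zone scaffolds, whose median log2 fold change was 0.07. NRXN2, a presynaptic adhesion protein of the same list, had -0.33 (adjusted p = 0.0666).

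None of the other 7 lists held a gene that passed in limma. At an unadjusted p under 0.05, 23.5% of all rows passed. In the lists these were 7 of 25 SNARE proteins and partners, 2 of 13 synaptotagmins and C2-domain genes and 4 of 21 vesicle membrane and Rab genes. They were 0 of 2 transmitter transporters, 3 of 7 calcium channel genes, 6 of 34 endocytosis genes and 1 of 15 AP-3 and budding genes. Among 25 other SNARE proteins and partners, the median log2 fold change was 0.09, and STXBP3, a Munc18 relative, had 0.33 (adjusted p = 0.0722) and VAMP7, a SNARE of late endosomes and secretory lysosomes, 0.30 (adjusted p = 0.0595). The 13 other synaptotagmins and C2-domain genes had a median of 0.02, with SYTL2 at 0.44 (adjusted p = 0.163) and SYT14 at 0.31 (adjusted p = 0.0838). SYTL2 was low, at means of 1.75 TPM in CBR-470-1 and 1.04 TPM in DMSO, and SYT14 had 15.8 and 12.5 TPM. Of 21 other vesicle membrane and Rab genes, 14 lay below 0 and the median was -0.07. In that list RAB27B, a Rab of secretory granules, had -0.55 (adjusted p = 0.105) and SYPL1, a synaptophysin relative, 0.41 (adjusted p = 0.0822). RAB27B was low, at means of 2.77 TPM in CBR-470-1 and 4.44 TPM in DMSO. The 7 calcium channel genes had a median of 0.02, with CACNB4 at 0.33 (adjusted p = 0.314) and CACNA2D2 at -0.24 (adjusted p = 0.135). CACNB4 averaged only 3.44 TPM in CBR-470-1 and 2.48 TPM in DMSO. Among 34 endocytosis genes the median was -0.01, with ITSN1 at -0.31 (adjusted p = 0.183) and SH3GL1, endophilin A2, at -0.29 (adjusted p = 0.0665). The 15 genes of the AP-3 adaptor and of vesicle budding had a median of 0.00, with BLOC1S5 at 0.21 (adjusted p = 0.346) and VPS41 at 0.16 (adjusted p = 0.156).

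**Figure D5:**
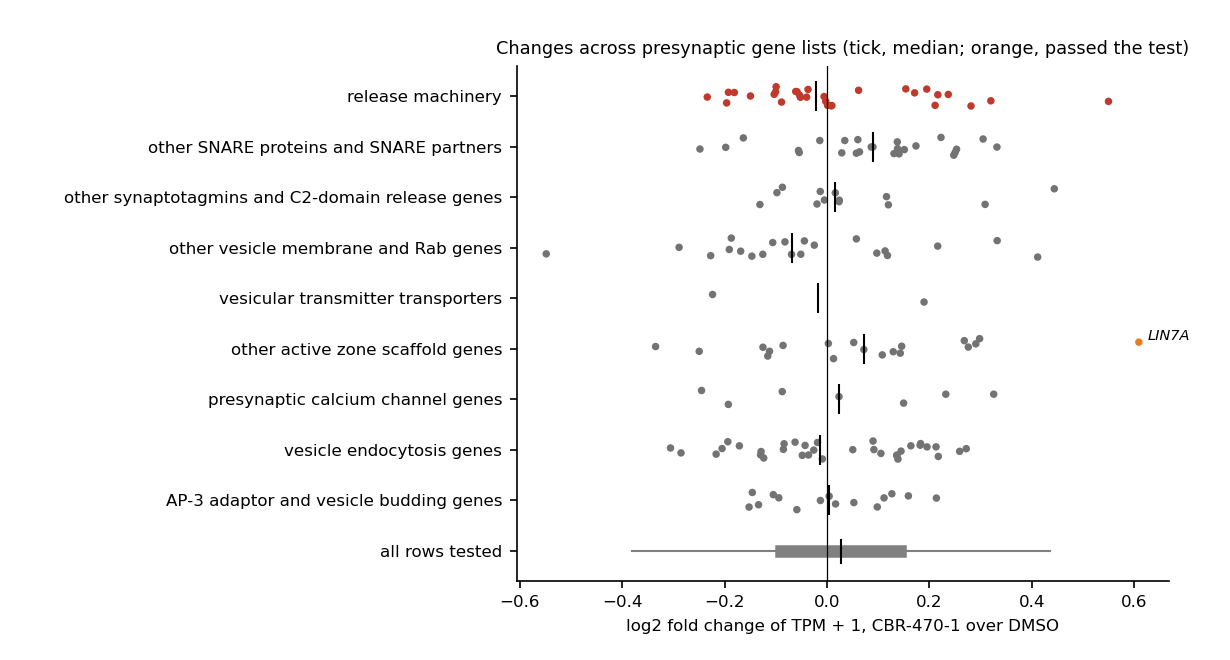
Log2 fold change, CBR-470-1 over DMSO, of each tested gene in the 33-gene set and 8 further presynaptic lists, 1 point a gene, with ticks at the medians and a bar for all rows tested (thick, middle 50%; thin, middle 95%). LIN7A at 0.61 is the single gene that passed, and the medians lie between -0.07 and 0.09.

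Over the whole table, 265 rows passed, 152 higher and 113 lower. This number rested on all 6 libraries, as it was 31, 26 and 18 without CBR-470-1 replicate 1, 2 and 3, and 82, 42 and 82 without DMSO replicate 1, 2 and 3. None of the 30 tested genes passed in any of these 6 refits, in which 6 to 9 of them had an unadjusted p under 0.05, against 17.7% to 23.8% of all rows.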

How the data were processed

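Libraries were made from polyA RNA with a kit that does not mark strand, per the labels' protocols. The authors deposited TPM values for 6 libraries by gene symbol. Salmon 0.7.2, bcl2fastq and the build GRCh38 are named in the submitters' processing notes. Which transcript annotation was used, and how transcripts were summed, is not given in the sources used here. TPM keeps no depth, so no counting interval or detection floor can be given, and precision rests on 3 replicates per group. Columns summed to 972453 to 973696 TPM.

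The 13470 rows averaging 1 TPM or more were fitted on the log2(TPM + 1) scale with limma 3.58.1 in R 4.3.3 (group only, variance trend, two-sided). P-values were adjusted by Benjamini-Hochberg over all these rows and called at 0.05. Means and SDs are of linear TPM. GC content and length are those of the longest GENCODE 29 transcript on GRCh38, and the GC and length correction removes a spline trend (5 degrees of freedom) from each library. The genes and lists were chosen with earlier results of these data known. Of the 33 genes, values in every library are given for those that passed under any setting, for those averaging 5 TPM or more whose groups did not overlap, and for the most abundant of each role. RAB3B and SYT5, below that mean, were added after their values were seen. In each further list the called genes and up to 2 with the largest change are named. The procedure was tested on simulated data. Other settings tried were a pseudocount of 0.1 or 5 TPM, a minimum mean of 5 TPM or none, median centring, quantile normalization, no variance trend, robust empirical Bayes, the replicate block, the GC and length correction alone and with that block, and each library left out.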

Additional observations from a re-analysis of the deposited data

How the results depend on the processing

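Without any filter 82 rows passed, with a mean of at least 5 TPM 428, with no variance trend 83, and with a library left out 18 to 82, against 265. Median centring gave 124 higher and 237 lower, against 152 and 113 as deposited. Median centring moved the median of all rows to -0.01, against 0.03. The number of the 33 genes called higher was 1 (STX1A) with the GC and length correction and 0 under every other alternative run, and none was called lower under any. Among the 8 further lists 4 genes passed with a mean of at least 5 TPM (CLTC, LIN7A, SH3GL1 and VAMP7) and 0 to 1 with a library left out.

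Same-numbered libraries did not deviate together (r of -0.14, -0.01 and -0.03), and differently numbered ones had r of -0.09 to 0.14. Whether same-numbered libraries share a day or batch is not stated. So few correlations, of values centred within each group, cannot settle it. With the replicate block 17 rows passed, and 21 with the block and the GC and length correction, and in both 0 genes of the 8 lists passed. LIN7A then had an adjusted p = 0.0844 and 0.0843 in limma.

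Signs turned under some settings for several tested genes of the set, none of which had passed the test in the first place. With the GC and length correction, with or without the replicate block, the log2 fold change was -0.0256 for AP3B2, 0.0309 for BSN, 0.0251 for CPLX1, 0.0325 for DNM1 and 0.0324 for SYP. Median centring gave -0.0296 for AP3B2, -0.0361 for SNAP47 and -0.0277 for SYN1. Quantile normalization gave -0.0001 for AP3B2, -0.0176 for SNAP47 and -0.0361 for SYN1. With a library left out the ranges were -0.0358 to 0.0427 for AP3B2, -0.0277 to 0.0108 for BSN, -0.1979 to 0.0757 for CADPS, -0.1874 to 0.0282 for CPLX1, -0.1254 to 0.0375 for DNM1, -0.2923 to 0.1453 for PCLO, -0.0678 to 0.1603 for RIMS1, -0.0233 to 0.008 for SNAP25, -0.0372 to 0.037 for SNAP47, -0.0256 to 0.0454 for SYN1 and -0.1275 to 0.0191 for UNC13A. The cause was not tested. Unknown depth limits what can be said of genes near 1 TPM.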

Other observations

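Of the 8 transporters that load transmitters into vesicles, SLC18A3, which carries acetylcholine, was the only one above 5 TPM, at 11.0, 10.0 and 10.9 TPM in CBR-470-1 and 8.195, 8.99 and 10.6 TPM in DMSO, and the groups overlapped. Its log2 fold change was 0.19 (adjusted p = 0.296 in limma), and that of SLC17A9, the other one tested, was -0.22 (adjusted p = 0.452), a median of -0.02. SLC17A9 averaged 1.003 TPM in CBR-470-1 and 1.35 TPM in DMSO. The monoamine transporter SLC18A1, named after its values were seen, was listed at 0.113, 0.135 and 0.112 TPM in CBR-470-1 and 0.260, 0.301 and 0.249 TPM in DMSO, below the level tested. SLC18A2 averaged 0.167 ± 0.0334 TPM in CBR-470-1 and 0.121 ± 0.0102 TPM in DMSO. The GABA transporter SLC32A1 was listed at 0 in all 6 libraries.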
